A study of Mus musculus with 20 samples.

Results

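A set of 10 genes was followed whose transcripts were detected in organoids grown from normal mouse mammary gland and were far lower in most mammary tumor material of the same strain: Ptn, Reln, Dmbt1, R3hdml, Aoc1, Bhmt, Kcnk16, Pcp4, Khdrbs2 and Prr32. These 10 genes, of 45318 in the count tables and 18698 that passed the filter on low counts, were chosen by their level in CPM (read counts of a gene scaled to the size of its library), which was far lower in tumor groups than in wild-type (WT) organoids. Their difference from WT organoids is therefore a description here and carries no test. The choice had no numeric threshold, so there are no values just inside or outside one.

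The material came from FVB mice in 20 polyA+ RNA-seq libraries. Neu-NDL organoids (3 libraries) were grown for 6 days from MMTV-Neu-NDL tumors, in which the mouse mammary tumor virus (MMTV) promoter drives an activated form of the receptor tyrosine kinase Neu (ErbB2). PyMT organoids came from MMTV-PyMT tumors, in which the same promoter drives polyomavirus middle T antigen, and were sampled after 6 days of culture in 3 libraries whose titles name day 6, after 6 days in 2 libraries whose titles name no day (called undated below), and at 0 days, straight after preparation, in 3 libraries. PyMT tumor sections (3 libraries) and Neu-NT tumor sections (3 libraries) were uncultured 30 µm cryosections, the Neu-NT tumors carrying the genotype MMTV-Cre;Flox-Neo-Neu-NT, where Cre under the MMTV promoter releases an activated Neu allele in the mammary epithelium. WT organoids (3 libraries) were grown for 6 days from wild-type mammary gland and carried no transgene. Organoids are small epithelial fragments embedded in matrigel with the growth factor FGF2, a protocol that the labels of all libraries word for MMTV-PyMT tumors. The day 6 and undated libraries are together called 6 day PyMT organoids (5 libraries). The labels give neither the age nor the sex of the mice, nor whether the libraries of a group came from different mice, so p-values measure the spread between these libraries only. No WT sections and no WT day 0 organoids were analysed here: genotype and culture cannot be told apart for sections and day 0 organoids against WT organoids.

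A mammary duct consists of an inner luminal layer, which holds hormone-sensing cells and the progenitors of milk-secreting cells, and an outer basal layer of contractile myoepithelial cells. The 10 genes have no common pathway. Ptn and Reln encode secreted signals, Dmbt1 and R3hdml other secreted proteins, Aoc1 and Bhmt metabolic enzymes, Kcnk16 and Pcp4 proteins of ion and calcium handling, Khdrbs2 an RNA-binding protein, and Prr32 a proline-rich protein whose function is not established.

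Reln and Khdrbs2 are shown as the most GC-rich promoters of the members, Reln also being the member that departed from the others in the tumor libraries, and Ptn and Bhmt as promoters near and below the median GC content of all promoters. Each window runs 5′ to 3′ on the gene's strand and covers 250 bases before and 50 bases after the transcription start, from RefSeq on GRCm38.p6. Capitals mark matches, on either strand, to the CCAAT box (CCAAT), the GC box (GGGCGG) or the steroid receptor half-site (AGAACA). In Khdrbs2 a GC box and a CCAAT box share bases.
Reln, chr5:22344656-22344955, minus strand: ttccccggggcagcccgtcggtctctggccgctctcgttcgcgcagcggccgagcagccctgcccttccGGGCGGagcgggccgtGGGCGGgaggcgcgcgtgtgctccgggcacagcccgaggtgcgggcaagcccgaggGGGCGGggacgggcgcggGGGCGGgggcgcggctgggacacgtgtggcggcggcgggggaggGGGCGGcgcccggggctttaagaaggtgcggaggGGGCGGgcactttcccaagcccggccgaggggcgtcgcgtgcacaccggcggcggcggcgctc
Khdrbs2, chr1:32172472-32172771, plus strand: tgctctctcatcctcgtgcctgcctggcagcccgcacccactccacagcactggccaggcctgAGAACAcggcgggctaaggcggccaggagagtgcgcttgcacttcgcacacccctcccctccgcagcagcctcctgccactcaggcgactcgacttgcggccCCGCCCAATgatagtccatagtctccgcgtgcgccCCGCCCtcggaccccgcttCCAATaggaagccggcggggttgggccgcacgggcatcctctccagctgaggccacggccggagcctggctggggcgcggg
Ptn, chr6:36810130-36810429, minus strand: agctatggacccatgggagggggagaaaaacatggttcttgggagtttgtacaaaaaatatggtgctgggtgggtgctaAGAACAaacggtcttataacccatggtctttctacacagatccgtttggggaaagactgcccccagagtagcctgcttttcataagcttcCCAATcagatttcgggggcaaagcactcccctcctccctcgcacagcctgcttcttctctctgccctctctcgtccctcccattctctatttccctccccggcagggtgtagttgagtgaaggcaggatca
Bhmt, chr13:93637709-93638008, minus strand: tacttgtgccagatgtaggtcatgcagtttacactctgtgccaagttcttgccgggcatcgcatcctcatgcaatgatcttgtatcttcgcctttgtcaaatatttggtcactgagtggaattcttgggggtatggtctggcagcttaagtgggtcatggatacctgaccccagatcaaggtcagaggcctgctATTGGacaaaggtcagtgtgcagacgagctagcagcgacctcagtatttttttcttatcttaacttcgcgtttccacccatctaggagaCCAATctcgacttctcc

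The Reln window had a GC content of 80.7%, above that of 99.2% of 32851 mouse promoters, with 47 CpG dinucleotides and 6 GC boxes. Khdrbs2 followed with a GC content of 70.3%, 26 CpG dinucleotides, 2 GC boxes, 2 CCAAT boxes and 1 steroid receptor half-site. Ptn had a GC content of 52.0%, close to the median of 52.7% over all promoters, with 6 CpG dinucleotides, 1 CCAAT box and 1 half-site, and Bhmt had a GC content of 48.0% with 8 CpG dinucleotides and 2 CCAAT boxes. The lowest GC content was 42.7%, at Prr32, with 1 CpG dinucleotide. Of the 9 members with a window, 5 held a CCAAT box, against 37.4% of all promoters. The GC box was present in 2 of 9 members, against 35.7% of promoters, and the half-site in 2 of 9, against 19.0%. TATAAA (the TATA box, 13.6% of promoters) and TTCNNNGAA (a STAT site, 8.30%) matched in 0 of 9. These matches describe letters in the windows and are not binding sites.

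All 10 members were protein coding and lay on 9 chromosomes, with only Ptn and Aoc1 sharing one, chromosome 6. All 10 passed the filter on low counts, but only Ptn, Reln and Dmbt1 would have passed without the WT libraries, so the other 7 were in the test because of the level that chose them. In WT organoids the level per kilobase of exon spanned a wide range. Ptn had 70.6 CPM per kb, above 96.7% of the genes tested, and Dmbt1 had 17.2 CPM per kb, above 83.9%. Aoc1 had 3.92 CPM per kb, near the middle of all genes. R3hdml, Pcp4, Prr32 and Reln lay between 1.24 and 0.858 CPM per kb, Kcnk16 had 0.509, and Bhmt (0.115) and Khdrbs2 (0.0612 CPM per kb) were near the bottom. The plot of levels per length shows that only Ptn and Dmbt1 were abundant transcripts of normal organoids.

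**Figure D1:**
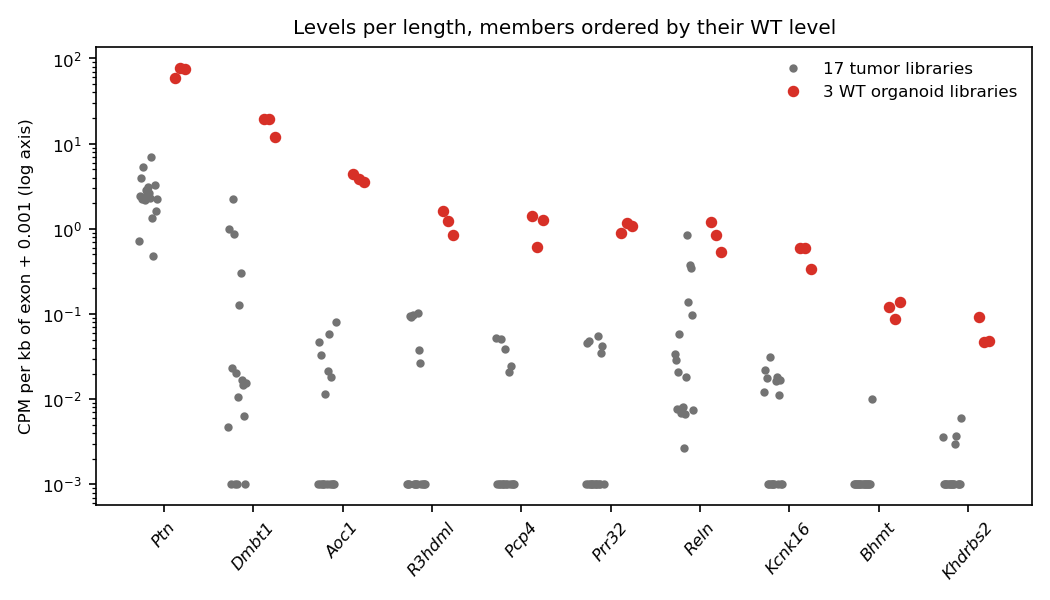
Level of each member in CPM per kilobase of exon plus 0.001 (log axis), members ordered by their WT level; grey points are the 17 tumor libraries and red points the 3 WT organoid libraries. WT levels run from 70.6 CPM per kb for Ptn to 0.0612 for Khdrbs2, and Reln is the member whose grey points reach the red ones.

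Ptn (chr6:36714929-36810220, minus strand, mm10) encodes pleiotrophin, a heparin-binding growth factor of the midkine family. It had 24.2, 4.58 and 1.66 CPM in Neu-NDL organoids, 9.82, 8.85 and 10.6 CPM in day 6 and 9.09 and 7.85 CPM in undated PyMT organoids, 7.80, 18.4 and 7.42 CPM in day 0 organoids, 2.48, 8.34 and 13.5 CPM in PyMT sections and 11.1, 5.63 and 7.77 CPM in Neu-NT sections, against 204, 267 and 256 CPM in WT organoids. The tumor groups averaged 3.35% to 4.63% of the WT mean of 242 ± 33.5 CPM (SD, n = 3). Ptn was the one member with at least 1 CPM in all 17 tumor libraries, and the highest of them, Neu-NDL library 1, lay far below the lowest WT library. In bulk RNA, fewer cells of a type and less RNA per cell cannot be told apart, for Ptn and for every gene below.

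Reln (chr5:21884454-22344702, minus strand) encodes reelin, a large secreted glycoprotein best known for positioning neurons in the developing brain, where it binds the receptors VLDLR and LRP8 and acts through the adaptor DAB1. Lymphatic endothelial cells also make it. Reln had 20.3, 3.23 and 9.02 CPM in Neu-NDL organoids, 0.163, 0.171 and 0.0388 CPM in day 6 and 0.134 and 0.405 CPM in undated PyMT organoids, 0.468, 1.36 and 0.142 CPM in day 0 organoids, 0.774, 0.653 and 0.158 CPM in PyMT sections and 8.32, 2.30 and 0.155 CPM in Neu-NT sections, against 28.4, 20.2 and 12.5 CPM in WT organoids. Neu-NDL library 1 lay within the WT range, and the other 2 Neu-NDL libraries lay below it. The Neu-NDL mean of 10.9 ± 8.70 CPM was 53.3% of the WT mean of 20.4 ± 7.93 CPM (SD, n = 3 each), and without library 1 it was 6.13 CPM, or 30.1% of WT. In the PyMT groups the mean was between 0.609% and 3.23% of WT. Reln was thus far below WT in every PyMT library, while 1 Neu-NDL library was not below WT. Neu-NT sections had a mean of 17.6% of WT, and of 6.03% without section 1. A stretch of 246 exonic bases is shared with the antisense gene Gm10475, and whether counting used strand is not given in the sources used here.

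Dmbt1 (chr7:131032053-131121630, plus strand) encodes a secreted mucin-like glycoprotein with scavenger receptor cysteine-rich domains that takes part in mucosal defence and epithelial differentiation. It had 2.12, 0.112 and 0.0962 CPM in Neu-NDL organoids, 0, 0.137 and 0 CPM in day 6 and 0.0671 and 0.884 CPM in undated PyMT organoids, 0.156, 15.6 and 6.07 CPM in day 0 organoids, 0.0267, 6.93 and 0 CPM in PyMT sections and 0.0378, 0 and 0.104 CPM in Neu-NT sections, against 139, 139 and 85.3 CPM in WT organoids. Tumor libraries differed widely: 4 of 17 had a count of 0, while PyMT day 0 library 2 reached 15.6 CPM. The highest tumor values were in day 0 organoids and 1 PyMT section, both uncultured, and no 6 day PyMT library reached 1 CPM. PyMT sections 1 and 3 and the Neu-NT sections, also uncultured, had at most 0.104 CPM, and cultured Neu-NDL library 1 had 2.12 CPM. Day 0 organoids averaged 6.00% of the WT mean of 121 ± 31.0 CPM (SD, n = 3), PyMT sections 1.92%, Neu-NDL organoids 0.641%, 6 day PyMT organoids 0.180% and Neu-NT sections 0.0389%.

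R3hdml (chr2:163492318-163502612, plus strand) encodes a secreted protein of the CAP superfamily, whose members include peptidase inhibitors. It had 2, 1 and 0 counts in Neu-NDL organoids, 0 in each day 6 library, 0 and 3 counts in undated organoids, and 2, 2 and 3 counts in day 0 organoids, and 0 in all 6 section libraries, against 69, 64 and 30 counts in WT organoids. The WT libraries had 1.78, 1.37 and 0.922 CPM, and day 0 organoids 0.104, 0.101 and 0.106 CPM. Day 0 organoids were the tumor group in which every library held R3hdml reads. With a floor of 3 counts over the group, the level was at least 33.2-fold lower in day 6 organoids, at least 37.4-fold lower in PyMT sections and at least 30.7-fold lower in Neu-NT sections than in WT organoids.

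Aoc1 (chr6:48872896-48909188, plus strand) encodes diamine oxidase, which degrades histamine and the polyamine putrescine. It showed the widest gap between tumor and WT libraries. Over the 17 tumor libraries it had 20 counts in all, with no library above 0.259 CPM and 10 libraries at 0, against 14.3, 12.4 and 11.6 CPM (1511 counts) in WT organoids. The lowest WT library lay 44.8-fold above the highest tumor library, which was Neu-NT section 3. Undated PyMT organoids had 2 and 5 counts, Neu-NT sections 0, 0 and 5, PyMT sections 0, 3 and 0, Neu-NDL organoids 0, 2 and 0, day 0 organoids 2, 0 and 0, and day 6 organoids 0, 1 and 0.

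Bhmt (chr13:93616675-93637961, minus strand) encodes betaine-homocysteine methyltransferase, which rebuilds methionine from homocysteine and is best known from liver and kidney. A total of 1 count was found over all 17 tumor libraries, in Neu-NT section 3, against 0.697, 0.491 and 0.799 CPM (76 counts) in WT organoids. With a floor of 3 counts over the group, the level was at least 28.0-fold lower in Neu-NDL organoids, at least 28.8-fold lower in 6 day PyMT organoids, at least 14.8-fold lower in day 0 organoids and at least 18.2-fold lower in PyMT sections than in WT organoids. In Neu-NT sections the single count gave a ratio of WT to sections of 45.0, with an exact 95% interval of 8.08 to 1778 that covers counting error only. Bhmt shares 187 exonic bases with the antisense gene Gm15622.

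The remaining members were scarce in WT organoids and near the limit of detection in tumors. Kcnk16 (chr14:20261376-20269199, minus strand) encodes TALK-1, a tandem-pore-domain potassium channel known from pancreatic beta cells. It had 10 counts over the 17 tumor libraries, with 9 libraries at 0 and 1 count in each PyMT section, against 1.42, 1.41 and 0.799 CPM (147 counts) in WT organoids. Pcp4 (chr16:96467606-96525793, plus strand) encodes a small IQ-motif protein that binds calmodulin, known from cerebellar Purkinje cells. It had 6 counts in the tumor libraries, with 12 at 0, against 1.45, 0.619 and 1.29 CPM (127 counts) in WT organoids, and 243 of its exonic bases overlap Igsf5 on the same strand. Khdrbs2 (chr1:32172714-32658568, plus strand) encodes SLM1, a STAR-family splicing regulator of neurons that acts on neurexin transcripts. It had 4 counts in the tumor libraries, with 13 at 0, against 0.929, 0.470 and 0.492 CPM (74 counts) in WT organoids. Prr32 (chrX:45090904-45092791, plus strand) had 7 counts in the tumor libraries, with 12 at 0, against 0.981, 1.30 and 1.20 CPM (138 counts) in WT organoids. For these 4 genes all tumor libraries lay below all WT libraries, and the differences among tumor groups were of 0 to 3 counts per group and were not detectable at this depth.

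Over all members, 9 of 10 had every tumor library below every WT library, Reln being the exception. Of all genes tested 2.44% did so, and since this contrast chose the members nothing is read from the comparison. The 7 members other than Ptn, Reln and Dmbt1 summed to between 0 and 0.362 CPM in tumor libraries, against 17.1 to 21.6 CPM in WT organoids. Day 6 library 1, with 19046725 gene counts, had no count for any of these 7. Neu-NDL library 1, the deepest with 48341438 gene counts, had 9 counts over 5 of them, and the part of depth in this was not tested. The plot of members by library shows that the scarce genes were near 0 in every tumor group while Reln and Dmbt1 spread widely among tumor libraries.

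**Figure D2:**
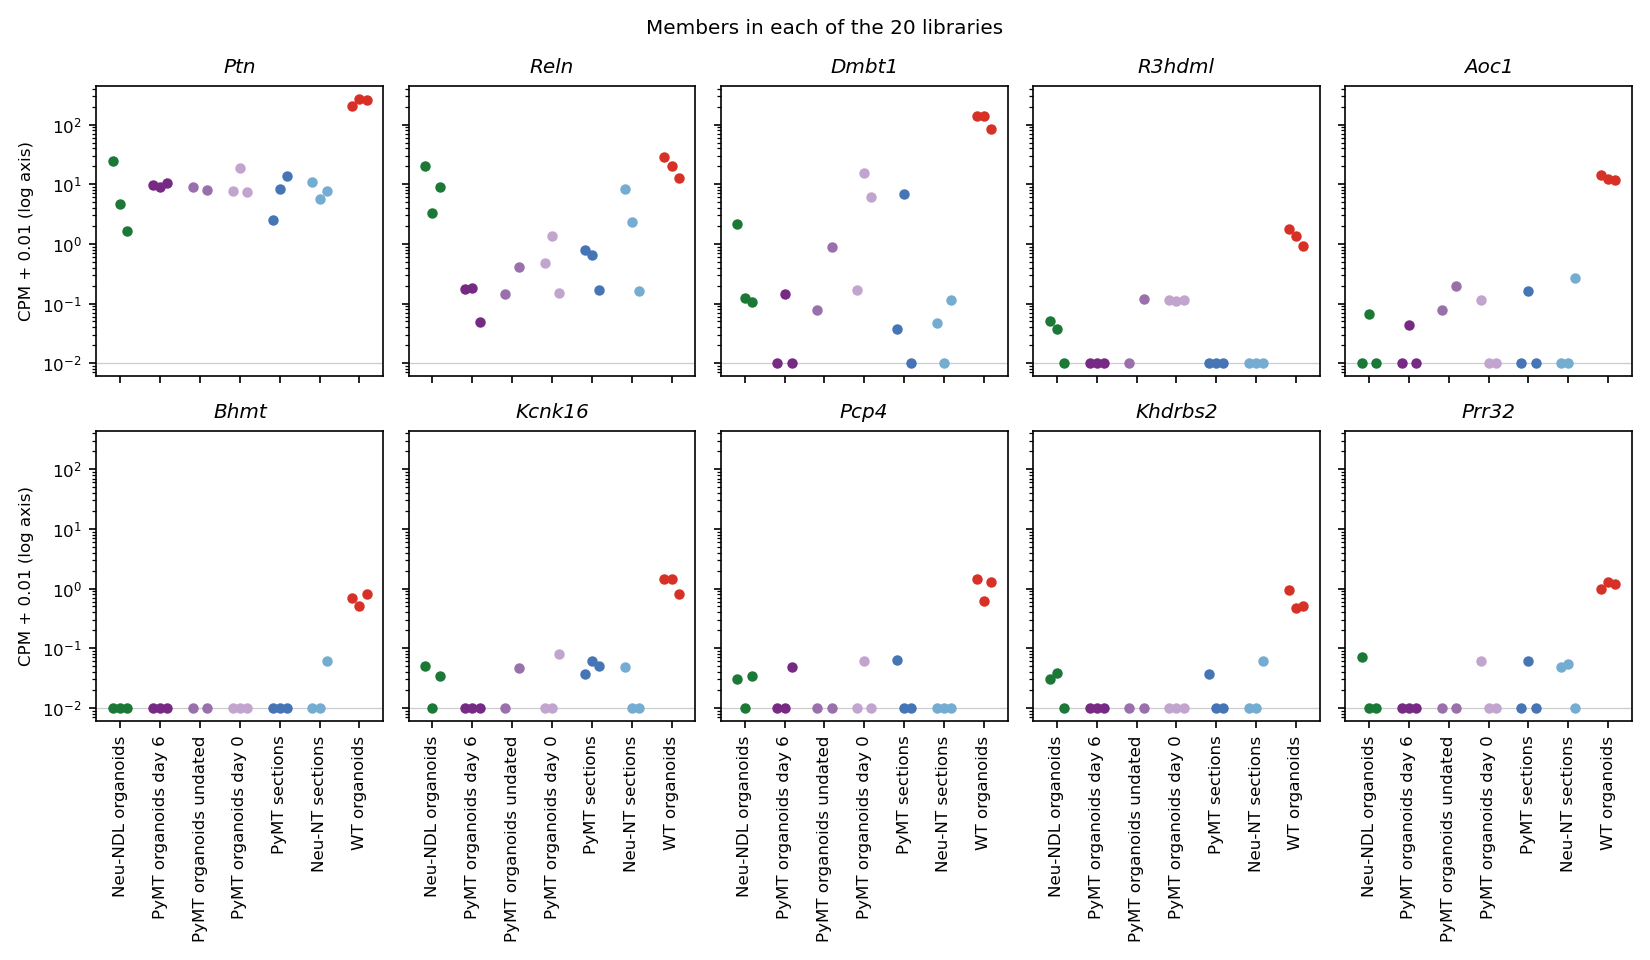
CPM plus 0.01 (log axis) of each member in each of the 20 libraries, with tumor groups at the left and WT organoids at the right of each panel; the grey line marks a count of 0. WT points lie above all tumor points except for Reln, where Neu-NDL library 1 (20.3 CPM) reaches the WT range of 12.5 to 28.4 CPM.

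The comparisons among tumor groups set no WT level against a tumor level and were tested. The low tumor levels were part of the choice of members, Reln included, so these p-values are not independent of that choice. WT libraries also entered the estimate of the spread and let 7 of the 10 members pass the filter. These 7 had few counts in tumor libraries, so the tallies of members called below speak for Ptn, Reln and Dmbt1 only. All 10 members were tested in each comparison, by edgeR's quasi-likelihood test with Benjamini-Hochberg adjustment over 18698 genes and a threshold of 0.05. Culture was compared first. In 6 day against day 0 PyMT organoids, 1 of 10 members was called, where 8.22% of all genes were called (4.12% lower). This was Dmbt1, with 0.218 ± 0.377 CPM (SD, n = 5) in 6 day organoids and 7.26 ± 7.77 CPM (SD, n = 3) in day 0 organoids, a log2 fold change of -5.47 ± 1.63 (SE) and an adjusted p of 0.0495. The libraries overlapped, since day 0 library 1 had 0.156 CPM and undated library 2 had 0.884 CPM. The call was lost in 7 of 8 fits that left out a library, and was kept without day 6 library 3, with log2 fold changes between -7.35 and -4.26. The reported test did not pair libraries. Over the 3 numbered pairs of day 6 and day 0 libraries, Dmbt1 did not pass the filter. With the pair as a block edgeR called 0 genes, with 1598 at an unadjusted p under 0.05. Without the block, 4 were called on the same libraries. R3hdml was at 0 to 0.111 CPM in 6 day organoids and 0.101 to 0.106 CPM in day 0 organoids, with an unadjusted p of 0.0221 and an adjusted p of 0.117. Nothing is read from these p-values, which rest on few counts.

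Preparation was compared next. In PyMT day 0 organoids against PyMT tumor sections, 0 of 10 members were called by edgeR (1 at an unadjusted p under 0.05, and 0 by DESeq2), where 0.444% of all genes were called (0.428% higher and 0.0160% lower). R3hdml was the gene under that unadjusted level, with 7 counts in day 0 organoids and 0 in PyMT sections, and its adjusted p was 0.429. It passed the filter only through the WT libraries, so nothing is read from its p-values. Dmbt1 averaged 7.26 CPM in day 0 organoids and 2.32 CPM in PyMT sections (n = 3 each), a difference smaller than the spread. Day 0 library 1 had 0.156 CPM. PyMT sections 1 and 3 had 0.0267 and 0 CPM, so the mean of the sections was carried by section 2 alone (6.93 CPM). Ptn averaged 11.2 ± 6.26 CPM in day 0 organoids and 8.12 ± 5.53 CPM in PyMT sections (SD, n = 3 each).

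The oncogenes were compared in sections and in organoids. In PyMT against Neu-NT sections, 0 of 10 members were called by edgeR (2 at an unadjusted p under 0.05, and 2 by DESeq2), where 9.70% of all genes were called (4.57% higher and 5.13% lower). Reln averaged 0.529 ± 0.326 CPM in PyMT sections and 3.59 ± 4.23 CPM in Neu-NT sections (SD, n = 3 each), with a log2 fold change of -2.75 ± 1.06 (SE) and an adjusted p of 0.111 by edgeR. Without Neu-NT section 3, which had 0.155 CPM, the log2 fold change was -3.31 and the adjusted p 0.0236, and DESeq2 gave an adjusted p of 0.0379 with all libraries. Dmbt1 had a log2 fold change of 5.53 ± 2.31 (SE) and an adjusted p of 0.139 by edgeR (0.046 by DESeq2), but this rested on PyMT section 2 and turned to -1.30 without it. Ptn averaged 8.12 ± 5.53 CPM in PyMT sections and 8.17 ± 2.76 CPM in Neu-NT sections (SD, n = 3 each).

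In Neu-NDL against 6 day PyMT organoids, 1 of 10 members was called, where 7.12% of all genes were called (4.70% higher and 2.42% lower). Reln was higher in Neu-NDL organoids, at 10.9 ± 8.70 CPM (SD, n = 3), than in 6 day PyMT organoids, at 0.182 ± 0.135 CPM (SD, n = 5), with a log2 fold change of 5.87 ± 1.04 (SE) and an adjusted p of 0.00851 by edgeR. The lowest Neu-NDL library (3.23 CPM) lay above the highest 6 day PyMT library (0.405 CPM). Leaving out undated library 1 ended the call (adjusted p 0.0624), as did fitting only the 8 libraries compared (0.0834), while leaving out any of the other 7 libraries kept it, with log2 fold changes between 5.03 and 6.36. Against the day 6 libraries alone the adjusted p was 0.039 and against the undated libraries alone 0.0515, which ended the call, and by DESeq2 with all libraries it was 4.91e-08. Ptn did not differ beyond its spread, with 10.1 ± 12.2 CPM in Neu-NDL organoids (SD, n = 3) and 9.23 ± 1.02 CPM in 6 day PyMT organoids (SD, n = 5). In Neu-NDL organoids against Neu-NT sections, 0 of 10 members were called by edgeR (0 at an unadjusted p under 0.05, and 0 by DESeq2), where 7.97% of all genes were called (4.06% higher and 3.91% lower). Reln there had a log2 fold change of 1.59 ± 0.99 (SE) and an adjusted p of 0.33.

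Whether the step between organoids and sections differed between Neu and PyMT tumors was tested for all members in the same model. None was called. The share of all genes called in this test is not given here, so nothing is read from that tally, which could speak for Ptn, Reln and Dmbt1 only. The other members passed the filter only through the WT libraries. Their few counts in tumor libraries could not decide the question, so nothing is read from their results. The log2 difference, Neu-NDL organoids minus Neu-NT sections less 6 day PyMT organoids minus PyMT sections, was 3.12 ± 1.40 (SE) for Reln with an adjusted p of 0.182 by edgeR. It was 7.81 ± 2.85 (SE) for Dmbt1 with an adjusted p of 0.106, and 0.147 ± 0.95 (SE) for Ptn with an adjusted p of 0.948, both by edgeR. The Dmbt1 value rested on few libraries: Neu-NDL library 1 held 105 of 113 counts, PyMT section 2 held 138 of 139, and Neu-NT sections had 3 in all. The Neu alleles of organoids and sections were not the same, so the preparation and the allele cannot be told apart in the Neu part of this difference.

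The genes most like Reln across libraries, by Pearson r of log2 CPM over all 20 libraries, were Slc27a6 (0.920), a fatty acid transporter, Sv2c (0.869), a synaptic vesicle glycoprotein, and Styxl1 (0.867), a catalytically inactive phosphatase. The same 3 genes led over the 17 tumor libraries, with r of 0.889, 0.887 and 0.882. Sv2c had 11.4, 2.08 and 28.8 CPM in Neu-NDL organoids, no more than 0.356 CPM in any PyMT library, and 13.0, 3.92 and 0.155 CPM in Neu-NT sections, against 3.59, 4.10 and 4.67 CPM in WT organoids. Slc27a6 had 3.21, 1.46 and 1.64 CPM in Neu-NDL organoids, between 0.0776 and 0.589 CPM in PyMT libraries, and 2.04, 0.901 and 0.414 CPM in Neu-NT sections, against 2.17, 2.39 and 2.21 CPM in WT organoids. Both had their highest Neu-NT value in section 1 and their lowest in section 3, as Reln did.

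**Figure D3:**
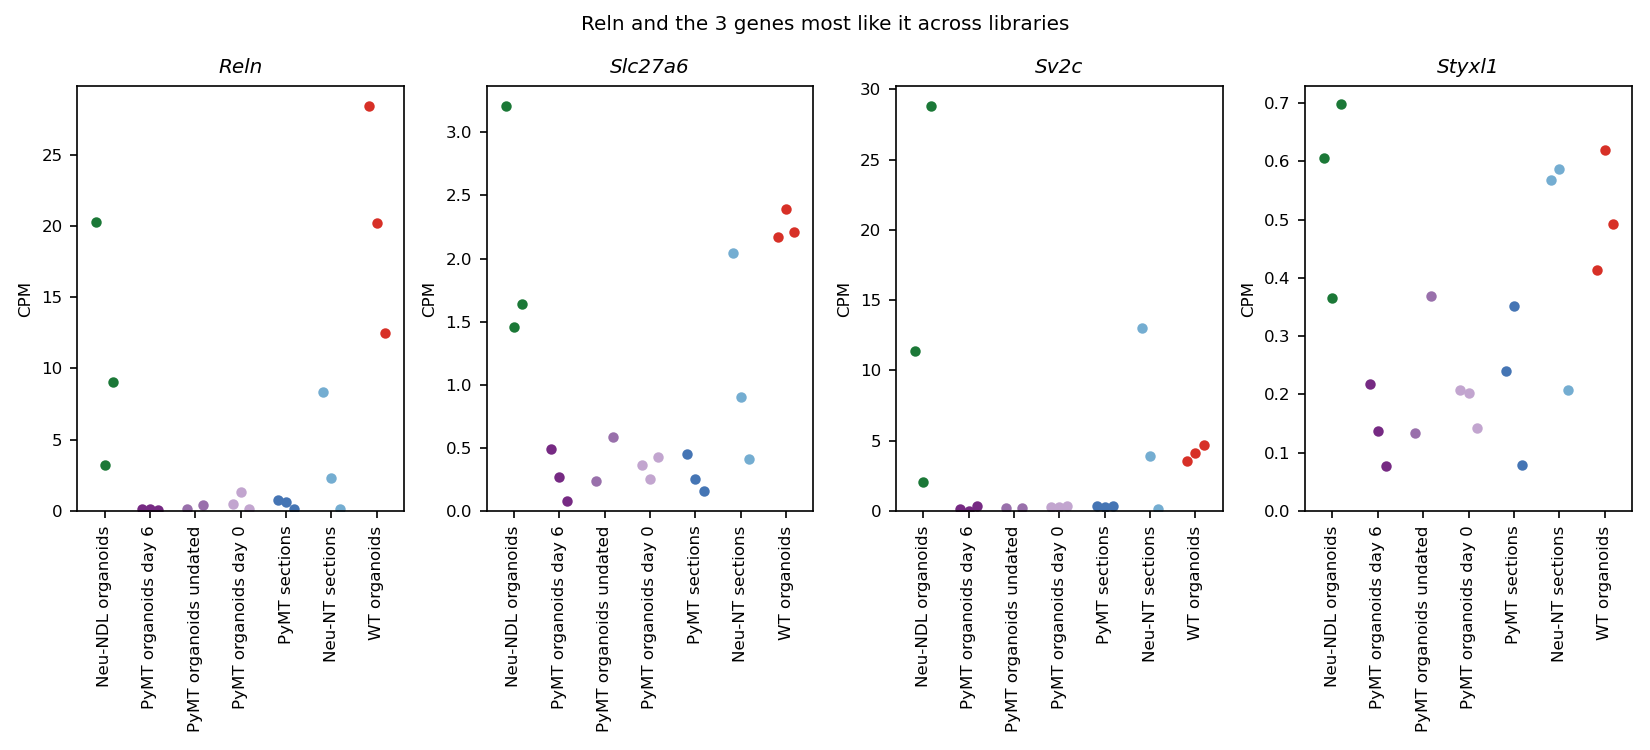
CPM of Reln and of the 3 genes most like it in each library, with tumor groups at the left and WT organoids at the right; each panel has its own axis starting at 0. In Reln, Slc27a6 and Sv2c the Neu-NDL points and Neu-NT section 1 lie above every PyMT point.

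For the scarce members the likest genes shared their on-off pattern. L3mbtl4, a Polycomb-related gene, was among the 3 likest for 6 members, with r between 0.940 for Kcnk16 and 0.991 for Bhmt over 20 libraries. It had 0 CPM in 15 of the 17 tumor libraries, against 0.490, 0.427 and 0.584 CPM in WT organoids. Dmbt1 was most like Cldn6 (0.945), a claudin of tight junctions, and Ptn most like Ttc6 (0.918). Over the 17 tumor libraries alone, Ptn was most like Plpp1, with r of 0.720. These correlations describe libraries that share the step between WT and tumor groups, and carry no test.

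Of other genes in the members' pathways, 152 were listed, members left out, and 136 were tested. Against WT organoids, 4 rose and 2 fell in Neu-NDL organoids (4.41% called, where 4.52% of all genes were called, 2.47% higher and 2.06% lower), 2 rose and 6 fell in 6 day PyMT organoids (5.88%, where 3.89% of all, 1.40% higher and 2.49% lower), 8 rose and 10 fell in day 0 organoids (13.2%, where 11.3% of all, 5.54% higher and 5.73% lower), 13 rose and 12 fell in PyMT sections (18.4%, where 12.5% of all, 6.45% higher and 6.05% lower), and 26 rose and 16 fell in Neu-NT sections (30.9%, where 19.0% of all, 10.5% higher and 8.47% lower). Among 15 tested genes of reelin reception, 2 rose and 0 fell in Neu-NDL organoids, 1 rose and 0 fell in 6 day PyMT organoids, 0 rose and 2 fell in day 0 organoids, 1 rose and 2 fell in PyMT sections, and 3 rose and 0 fell in Neu-NT sections. The receptor gene Vldlr had 307, 334 and 395 CPM in Neu-NDL organoids, against 230, 277 and 324 CPM in WT organoids, with an adjusted p of 0.753 by edgeR. Lrp8 had 30.4, 30.3 and 18.2 CPM in Neu-NDL organoids, against 18.9, 16.7 and 12.3 CPM in WT organoids, with an adjusted p of 0.596. Of 15 midkine family and pleiotrophin receptor genes, 0 rose and 1 fell in Neu-NDL organoids, 0 rose and 0 fell in 6 day PyMT organoids, 0 rose and 1 fell in day 0 organoids, 0 rose and 0 fell in PyMT sections, and 1 rose and 2 fell in Neu-NT sections. The pleiotrophin receptor gene Ptprz1 had 0.378, 1.08 and 32.9 CPM in Neu-NT sections, against 108, 107 and 123 CPM in WT organoids, with an adjusted p of 0.0505.

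In the CAP superfamily of R3hdml, Pi15, a peptidase inhibitor gene, fell in 4 of 5 comparisons. It had 1.52, 2.49 and 0.427 CPM in day 6 and 3.49 and 5.05 CPM in undated PyMT organoids, 0.208, 0.303 and 1.60 CPM in day 0 organoids, 0.667, 0.402 and 0.317 CPM in PyMT sections and 0.794, 0.135 and 0.984 CPM in Neu-NT sections, against 33.5, 60.8 and 27.6 CPM in WT organoids. The log2 fold change was -5.80 ± 0.93 (SE) in day 0 organoids, -6.42 ± 0.96 in PyMT sections and -5.99 ± 0.94 in Neu-NT sections, with adjusted p of 0.00217, 0.0044 and 0.000961 by edgeR, and these calls were kept whichever library was left out. In 6 day organoids it was -4.01 ± 0.71 with an adjusted p of 0.00773, lost without undated library 1 (0.0843). Neu-NDL organoids had 12.2, 3.94 and 3.44 CPM, with an adjusted p of 0.0658. Crispld1, another CAP gene, had 0.0378, 0 and 0.155 CPM in Neu-NT sections, against 13.5, 8.20 and 8.39 CPM in WT organoids, with a log2 fold change of -7.27 ± 1.46 (SE) and an adjusted p of 0.00388.

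Among 15 tested genes of methionine and homocysteine metabolism, the pathway of Bhmt, 0 rose and 1 fell in Neu-NDL organoids, 1 rose and 2 fell in 6 day PyMT organoids, 1 rose and 1 fell in day 0 organoids, 2 rose and 1 fell in PyMT sections, and 1 rose and 4 fell in Neu-NT sections. Cbs, which encodes the enzyme that commits homocysteine to cysteine synthesis, had 1.49, 0.984 and 0.144 CPM in Neu-NDL organoids and 0.567, 0.315 and 1.40 CPM in Neu-NT sections, against 5.89, 6.94 and 7.93 CPM in WT organoids. Its log2 fold change was -2.98 ± 0.73 (SE) with an adjusted p of 0.0312 in Neu-NDL organoids, a call lost in 5 of 6 fits that left out a library, and -3.19 ± 0.74 with an adjusted p of 0.0088 in Neu-NT sections. For polyamine and histamine metabolism, the pathway of Aoc1, 1 of 20 tested genes rose and 0 fell in Neu-NDL organoids, 0 rose and 0 fell in 6 day PyMT organoids, 2 rose and 0 fell in day 0 organoids, 2 rose and 1 fell in PyMT sections, and 5 rose and 2 fell in Neu-NT sections.

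Of 14 tested mucosal defence genes, the group to which Dmbt1 belongs, 1 rose and 0 fell in Neu-NDL organoids, 0 rose and 0 fell in 6 day PyMT organoids, 3 rose and 2 fell in day 0 organoids, 3 rose and 3 fell in PyMT sections, and 6 rose and 1 fell in Neu-NT sections. The largest rises over all pathway lists were in this group. Ltf, the gene of the iron-binding milk protein lactoferrin and also a marker of luminal progenitors, had 626, 1150 and 29200 CPM in Neu-NT sections, against 34.6, 13.7 and 12.3 CPM in WT organoids, with a log2 fold change of 9.0 ± 1.82 (SE) and an adjusted p of 0.00416 by edgeR. Muc4, a membrane mucin gene, had 0.227, 6.58 and 439 CPM in Neu-NT sections, against 0.0516, 0.171 and 0.0922 CPM in WT organoids, with a log2 fold change of 10.37 ± 2.30 (SE) and an adjusted p of 0.0069. Both values were carried by section 3: without it the log2 fold changes were 5.46 for Ltf and 4.93 for Muc4, still called. Sftpd, a collectin gene of innate defence, had 3.67, 8.74 and 299 CPM in Neu-NT sections, against 0.981, 0.470 and 0.584 CPM in WT organoids, with a log2 fold change of 7.25 ± 1.41 (SE), or 3.19 without section 3, and an adjusted p of 0.00333. Lpo, Ltf and Muc4 were also called higher in day 0 organoids and in PyMT sections, calls that were lost in 4 to 6 of 6 fits that left out a library. Wfdc2, a secreted protease inhibitor gene of glands, fell in the uncultured PyMT groups. It had 160, 85.2 and 10.5 CPM in day 6 and 206 and 391 CPM in undated organoids, 9.30, 4.2 and 10.4 CPM in day 0 organoids and 5.31, 4.77 and 8.20 CPM in PyMT sections, against 146, 139 and 166 CPM in WT organoids. Its log2 fold change against WT organoids was -4.23 ± 0.73 (SE) in day 0 organoids and -4.62 ± 0.74 in PyMT sections, with adjusted p of 0.00341 and 0.00448 by edgeR. In 6 day organoids it was 0.09, with an adjusted p of 0.957. In 14 tested genes with scavenger receptor cysteine-rich domains, 0 rose and 0 fell in Neu-NDL and in 6 day PyMT organoids, 1 rose in day 0 organoids, 3 in PyMT sections and 5 in Neu-NT sections, with 0 falling in each. Those in sections included the lymphocyte genes Cd5 and Cd163l1 in both kinds of section and Cd6 in Neu-NT sections. Immune markers rose beside them: 6 of 8 macrophage and 3 of 5 tested lymphocyte markers rose and 0 fell in each kind of section. Lymphocyte markers summed to 3.29 to 8.38 CPM in PyMT sections and 2.16 to 16.9 CPM in Neu-NT sections, against 0.310 to 0.492 CPM in WT organoids. Macrophage markers summed to 535 to 741 CPM in PyMT sections and 315 to 1448 CPM in Neu-NT sections, against 81.4 to 169 CPM in WT organoids. Their part in the rise of these genes was not tested.

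Of 16 tested genes of calmodulin and its binders, the partners of Pcp4, 0 changed in Neu-NDL organoids and in 6 day PyMT organoids, 0 rose and 1 fell in day 0 organoids and in PyMT sections, and 1 rose and 3 fell in Neu-NT sections. Camk4, a calmodulin-dependent kinase gene, fell to 0.728, 1.01 and 1.53 CPM in day 0 organoids and to 0.680, 0.135 and 1.81 CPM in Neu-NT sections, against 8.13, 11.3 and 7.32 CPM in WT organoids, with log2 fold changes of -3.02 ± 0.64 and -3.35 ± 0.65 (SE) and adjusted p of 0.0097 and 0.00324 by edgeR. Of 8 tested potassium channel genes of the family of Kcnk16, 0 changed in Neu-NDL organoids and in 6 day PyMT organoids, 1 rose and 1 fell in day 0 organoids and in PyMT sections, and 2 rose and 0 fell in Neu-NT sections. Among 12 tested STAR proteins, splicing regulators and neurexins, the setting of Khdrbs2, 0 changed in Neu-NDL organoids, 0 rose and 2 fell in 6 day PyMT organoids, 0 rose and 1 fell in day 0 organoids, 0 rose and 2 fell in PyMT sections, and 1 rose and 2 fell in Neu-NT sections. The 2 falls in 6 day PyMT organoids, and the 2 in PyMT sections, were Nrxn2 and Nrxn3. Nrxn2, named here with its levels already known, was called lower in 4 of 5 comparisons, all but Neu-NDL organoids. It had between 0 and 0.259 CPM in PyMT and Neu-NT libraries and 0.787, 0.0843 and 0.313 CPM in Neu-NDL organoids. In WT organoids Nrxn2 had 0.620, 0.939 and 1.20 CPM. Nrxn3 had at most 0.283 CPM in tumor libraries, against 0.981 to 1.09 CPM in WT organoids. Whether Nrxn2 and Nrxn3 would pass the filter without the WT libraries is not given here, so nothing is read from their calls.

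Markers of cell types were set beside the members. Mammary epithelial markers were present in every library, with summed levels of 3965 to 11400 CPM in tumor libraries and 6327 to 6917 CPM in WT organoids, and 0 of 8 had all WT libraries above all tumor libraries. Hormone-sensing luminal markers summed to 75.2 to 262 CPM in tumor libraries, against 308 to 435 CPM in WT organoids, with no overlap. For 3 of these 8 markers, Pgr, Foxa1 and Areg, all WT libraries lay above all tumor libraries. Pgr, the progesterone receptor gene, had at most 4.75 CPM in tumor libraries and was at 0 in 1, against 48.7 to 77.3 CPM in WT organoids. Tnfsf11, also on the list, was at most 0.317 CPM in tumor and 0.128 CPM in WT libraries, with 5 tumor libraries and 1 WT library at 0. Basal and myoepithelial markers summed to 96.1 to 7478 CPM in tumor libraries and 2783 to 3556 CPM in WT organoids. For 5 of 11, the contractile genes Acta2, Myh11, Cnn1 and Mylk and the oxytocin receptor gene Oxtr, all WT libraries lay above all tumor libraries. Acta2 had 14.0 to 129 CPM in tumor libraries, against 477 to 692 CPM in WT organoids. Other markers of the same lists did not separate the groups. Esr1, the estrogen receptor gene, averaged 14.5 ± 0.74 CPM in Neu-NT sections and 14.3 ± 4.17 CPM in WT organoids (SD, n = 3 each), and Prlr reached 245 CPM in a tumor library, against at most 210 CPM in WT organoids. The basal genes Krt5, Krt14, Krt17 and Trp63 reached 1834, 4423, 1045 and 162 CPM in tumor libraries, above every WT library, and the basal sum of day 6 library 2 was 7478 CPM. Luminal progenitor and alveolar markers summed to 1021 to 54620 CPM in tumor libraries and 3920 to 4994 CPM in WT organoids. All WT libraries lay above all tumor libraries for 1 of these 8, Lalba. Each of the others, Ltf, Csn3 and Wap among them, was higher in some tumor library than in any WT library. Of all genes tested, 2.44% separated in this way. Hence 3 hormone-sensing, 5 basal and 1 luminal progenitor and alveolar marker moved with the members. The other markers of these lists did not in all libraries, and their part in the members' difference was not tested.

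**Figure D4:**
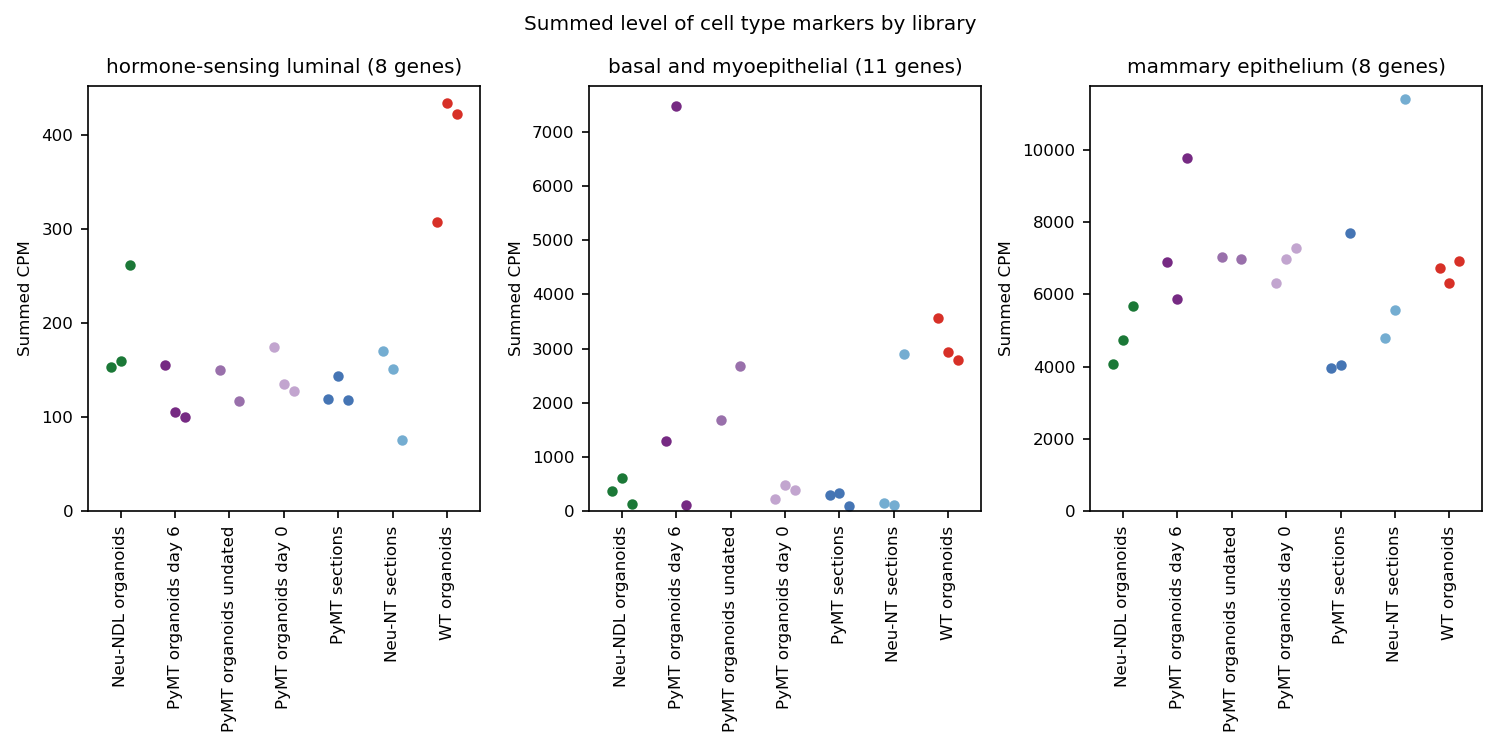
Summed CPM of marker genes of hormone-sensing luminal cells, of basal and myoepithelial cells and of mammary epithelium in each library, with tumor groups at the left and WT organoids at the right; axes start at 0. Hormone-sensing sums are 75.2 to 262 CPM in tumor libraries and 308 to 435 CPM in WT organoids, while the epithelial sums overlap.

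Lymphatic endothelial markers, set beside Reln, summed to 6.14 to 72.9 CPM in tumor libraries and 55.5 to 72.1 CPM in WT organoids. The highest tumor sum was in Neu-NDL library 1, where Reln lay within the WT range, against 11.4 and 6.14 CPM in Neu-NDL libraries 2 and 3. Undated library 1 had a sum of 55.1 CPM with Reln at 0.134 CPM. Nearly all of the WT sum was Pdpn, which basal cells also express, at 53.9 to 68.2 CPM. The defining lymphatic genes Prox1 and Lyve1 reached 17.2 and 12.1 CPM in tumor libraries, each being at 0 in 1. In WT organoids they had 0.646 to 1.32 CPM and 0.0516 to 0.123 CPM. Fibroblast markers summed to 2794 CPM in Neu-NDL library 1, against 148 and 185 CPM in Neu-NDL libraries 2 and 3. Endothelial markers summed to 48.2 CPM there, against 7.82 and 5.63 CPM. Neu-NT section 3 had a fibroblast sum of 2680 CPM with Reln at 0.155 CPM. The part of lymphatic cells, fibroblasts or endothelial cells in the Reln levels was not tested. Macrophage and myeloid markers summed to 388 to 1957 CPM in Neu-NDL organoids and 29.6 to 543 CPM in 6 day PyMT organoids, and 6 of 8 were called higher in Neu-NDL organoids, the comparison in which Reln was called; their part in that result was not tested. In 6 day against day 0 PyMT organoids, where Dmbt1 was called, 4 of 7 endothelial markers fell, with sums of 5.05 to 166 CPM in 6 day and 105 to 227 CPM in day 0 organoids, and their part was not tested.

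The libraries held 17478357 to 48341438 gene counts, so 1 count is worth more CPM in the shallowest libraries and low members are measured most coarsely there. Day 6 library 3 and Neu-NT section 3 stood apart from the other libraries of their groups, and they also held the lowest Reln values of those groups. Without both, Reln was still called in Neu-NDL against 6 day PyMT organoids (adjusted p 0.000582 by edgeR) and was also called between PyMT and Neu-NT sections (0.0159), and Dmbt1 was called in 6 day against day 0 PyMT organoids (0.0368). All group levels given are means over the libraries deposited for the group, these 2 included.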

How the data were processed

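The authors deposited 1 table of raw read counts per gene for each library, made with STAR and HTSeq on mm10, per the submitters' processing notes, with 45318 Ensembl gene IDs. Rows without a gene were left out: reads in no feature were 5.60% to 12.3% and ambiguous reads 4.68% to 7.39% of the reads counted, in no feature or ambiguous. Symbols and exon lengths came from GENCODE M21 (44671 IDs matched, 21578 protein coding), promoters from RefSeq on GRCm38.p6 for 9 of the 10 members. Libraries were grouped by title, genotype, preparation and culture time. Genes were tested with edgeR 4.0.16 in R 4.3.3 (TMM, filterByExpr, robust quasi-likelihood F test, 1 mean per group over all 20 libraries, 13 residual degrees of freedom), and called at a Benjamini-Hochberg adjusted p under 0.05 over 18698 genes. For 6 day PyMT organoids the test averaged the fitted day 6 and undated groups with equal weight. Those log2 fold changes are therefore not ratios of the means over 5 libraries given beside them. CPM used TMM library sizes. The fit was checked on simulated counts. Alternatives were DESeq2 1.42.0, other size factors, no filter, only the libraries compared, a replicate block, day 6 or undated libraries alone, and each library left out. Counting intervals (95%) and the floor of 3 counts cover counting error only.

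The members and the gene lists were chosen with earlier results of these data known. Other genes were named by a rule: per comparison with WT organoids, at most the 3 largest rises and 3 largest falls among called pathway genes whose libraries did not overlap and whose higher side had 5 CPM or more, and the 3 genes most like each member. The text gives part of the genes that this rule names. Vldlr, Lrp8, Ptprz1 and Nrxn3 are named only to say what their lists hold.

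Replicate numbers recur across groups. Day 6 and day 0 PyMT libraries with the same number deviated together from their group means (r of 0.287, 0.428 and 0.317). These numbers were therefore treated as pairs in an alternative fit, although the labels do not say that they share a tumor. No other pair of groups met this rule. The reported tests used no pairing. No 2 libraries of a group agreed within sampling noise.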

Additional observations from a re-analysis of the deposited data

Results flagged for a closer look

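In the 5 libraries of 6 day PyMT organoids, undated library 2 had 0.884 CPM of Dmbt1 (24 counts), against 0.137 CPM in the next library. Its gap to that library was 0.845 of the whole range, above the critical value of 0.71 for 5 libraries. That value assumes normally spread values, whereas these reach down to 0, and 7 members were checked. No chance rate is therefore given for this flag. For 3 scarce members 1 of the 5 libraries held all counts and the other 4 were at 0, so that the gap equals the range by construction and no chance rate applies. These were R3hdml with 0.111 CPM (3 counts) and Kcnk16 with 0.0368 CPM (1 count), both in undated library 2, and Pcp4 with 0.0388 CPM (1 count) in day 6 library 3.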

How the results depend on the processing

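The number of members called in 6 day against day 0 PyMT organoids, 1, became 0 without a filter on low counts, with only the libraries compared, with the replicate block, without the block on the same libraries, and with the day 6 or the undated libraries alone (0 to 1 when a library was left out). In Neu-NDL against 6 day PyMT organoids, 1 became 0 with only the libraries compared, with the replicate block, without it on the same libraries, and with undated libraries alone (0 to 1 with a library left out). In PyMT against Neu-NT sections, 0 became 2 with DESeq2 and 1 without both libraries that stood apart, an alternative chosen after seeing the data (0 to 1 with a library left out). Pathway genes called against WT organoids numbered, in 6 day organoids, 8, then 18 with DESeq2, 0 with the replicate block, 3 without it on the same libraries, 0 with undated libraries alone and 35 without both libraries (0 to 22 with a library left out, 0 without undated library 1 and 22 without day 6 library 3). In day 0 organoids 18 became 31 with DESeq2, 59 with only the libraries compared and without the block, 55 with the replicate block and 46 without both (5 to 10). In PyMT sections 25 became 55 with only the libraries compared and without the block, 48 with it and 54 without both (6 to 17). In Neu-NDL organoids 6 became 18 with DESeq2, 25 with only the libraries compared and without the block, and 29 without both (0 to 7). In Neu-NT sections 42 became 25 with the replicate block (26 to 42). The cause was not tested. Only day 6 and day 0 PyMT libraries of the same number deviated together. In the other comparisons the replicate block paired libraries by number alone, and nothing is read from it there. Over all genes, calls ranged across alternatives from 0 to 5701 (1537 as reported) for 6 day against day 0 organoids, 74 to 243 (83) for day 0 organoids against PyMT sections, 0 to 4317 (1814) for PyMT against Neu-NT sections, 0 to 4514 (1331) for Neu-NDL against 6 day PyMT organoids and 0 to 2903 (1491) for Neu-NDL organoids against Neu-NT sections. Against WT organoids they ranged from 399 to 2699 (846) for Neu-NDL organoids, 0 to 3071 (728) for 6 day organoids, 1455 to 5611 (2107) for day 0 organoids, 1583 to 5024 (2337) for PyMT sections and 1702 to 5384 (3555) for Neu-NT sections. Each low end of 0 came with the replicate block. Uncalled fold changes that turned sign were Ptn with the replicate block, at -0.80 in Neu-NDL against 6 day PyMT organoids and -0.43 in Neu-NDL organoids against Neu-NT sections. With a library left out, Ptn spanned -1.54 to 0.67, -1.38 to 0.84, -0.53 to 0.26 (6 day against day 0), -0.063 to 1.07 (day 0 against sections) and -0.61 to 0.42 (PyMT against Neu-NT sections), Reln -0.82 to 0.78 (day 0 against sections), and Dmbt1 -0.61 to 4.18 (Neu-NDL against 6 day PyMT) and -1.30 to 6.51 (PyMT against Neu-NT sections). With RLE size factors no call changed. Levels of members below about 1 CPM rest on few counts, so differences among tumor groups could not be seen for 7 of 10 members.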
